A study of Mus musculus with 4 samples.

Results

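Zinc and copper handling was measured through 33 genes in cultured mouse monocytes exposed to retinoic acid. The genes were taken by name: every zinc importer of the Slc39 (ZIP) family, every zinc exporter of the Slc30 (ZnT) family, the metallothioneins Mt1 to Mt4, the metal-sensing transcription factor Mtf1, and the copper genes Slc31a1, Slc31a2, Atp7a, Atp7b, Atox1 and Ccs. Only probe sets that the array annotation gives exactly 1 gene symbol were used. Each of the 33 genes then had 1 probe set, out of 22180 genes with such a probe set. There were 14 zinc importers, 8 zinc exporters, 5 genes in the group of metallothioneins with Mtf1, and 6 copper genes. The probe sets of Slc30a1 and Slc30a10 also carry a second symbol, and these genes were not analysed here.

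The RA group had 2 arrays, from monocytes given 100 nM all-trans retinoic acid, and the DMSO group had 2 arrays, from monocytes given the solvent DMSO. In both groups the marrow of 3 mice was pooled, Ly6C-high monocytes were sorted, and the cells were grown with 20 ng per ml GM-CSF plus 20 ng per ml interleukin 4, which favour dendritic cell differentiation. Retinoic acid or DMSO was present from the start, and RNA was taken 24 h later. Whether the 2 replicates of a treatment were independent cultures, or cells of different mouse pools, is not in the labels, so a p-value here reflects spread between samples that could be technical. In bulk RNA of this kind, fewer cells of a type and less RNA per cell cannot be told apart.

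Zinc enters the cytosol through ZIP proteins, from outside the cell or from organelles, and leaves it through ZnT proteins. Metallothioneins are small, cysteine-rich proteins that bind zinc and copper. When free zinc rises, Mtf1 binds metal response elements in DNA and switches on Mt1, Mt2 and the exporter gene Slc30a1. Copper enters through Slc31a1 and is passed on by chaperones, Atox1 to the copper pumps Atp7a and Atp7b, and Ccs to the superoxide dismutase Sod1. In macrophages, zinc and copper are moved between compartments during activation and during the defence against microbes.

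Values are log2 intensities, and a difference is the RA mean minus the DMSO mean on that scale, with the moderated standard error (SE) of limma and a p-value adjusted over 39720 probe sets. An intensity depends on the probe set, so levels of different genes are not ranked. Detection calls were not among the deposited values. In their place, a level up to 6.35, the 95th percentile of 1405 sensory receptor probe sets, is called dim. Array medians lay between 80.0 and 81.8 on the linear scale. All 8 monocyte markers measured, among them Ly6c2 and Csf1r, were above the dim level in at least 1 group. So were 9 of 10 neutrophil markers, 4 of 5 progenitor markers and 3 of 6 mast cell and basophil markers. The same held for 3 of 5 plasmacytoid dendritic cell markers, 2 of 5 B cell markers and 2 of 5 T cell markers. It held for 2 of 4 erythroid markers and 0 of 5 NK cell markers. Among the markers, Spi1 (monocyte) and Cxcr2 (neutrophil) fell and Retnlg (neutrophil, not bright enough in either group to pass the dim level) and Cd79b (B cell) rose (limma adjusted p = 0.0167 to 0.0471). The summed linear intensity of the neutrophil markers was 13910 and 14470 on the RA arrays, against 15140 and 15590 on the DMSO arrays. Of these 10 markers, however, 5 had positive and 5 negative differences, and Cxcr2, at -1.15, had the largest in size. The lower sum is thus not shared by the neutrophil markers as a set. For the progenitor markers it was 972 and 1022 with RA, against 1273 and 1284 with DMSO, and all 5 had negative differences (Cd34 at -0.50), though 0 of 5 passed (limma; at an unadjusted p under 0.05, Cd34 alone). The sums of the monocyte markers (30640 and 31960 with RA, against 27860 and 29590 with DMSO), of the mast cell and basophil markers (310.1 and 329 with RA, against 347 and 360.1 with DMSO) and of the B cell markers (401 and 406 with RA, against 314 and 317 with DMSO) did not overlap either. Of the 8 monocyte markers, however, 4 had positive and 4 negative differences, so the higher sum is not shared by them as a set. The mast cell and basophil markers had 1 positive and 5 negative differences. For the B cell markers 4 were positive and 1 negative, with Cd79b, at 0.65, the largest in size. The part of all these markers in the results was not tested.

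Retinoic acid raised 2 of the 33 genes, the zinc exporter Slc30a9 and the zinc importer Slc39a8, and lowered 0 of 33 at an adjusted p under 0.05 (limma). Across all genes 3.07% passed this threshold, 1.28% higher and 1.79% lower. Among genes above the dim level in a group the share was 5.16%, and 2 of the 30 zinc and copper genes above that level passed. The count therefore lies close to the background. At an unadjusted p under 0.05 there were 4 genes on the higher side (Slc30a9, Slc39a8, Slc39a4 and Mt1) and 4 on the lower side (Mt3, Slc30a4, Slc39a13 and Atp7a), where 15.1% of all genes had such a p, 7.55% higher and 7.58% lower. The RA and DMSO arrays did not overlap for 18 of the 33 genes, 11 higher and 7 lower, and for 48% of all genes, 25% higher and 23% lower. The median difference over the 33 genes was 0.06, against 0.01 over all genes, and the median size of a difference was 0.14, against 0.10 over all genes.

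**Figure D1:**
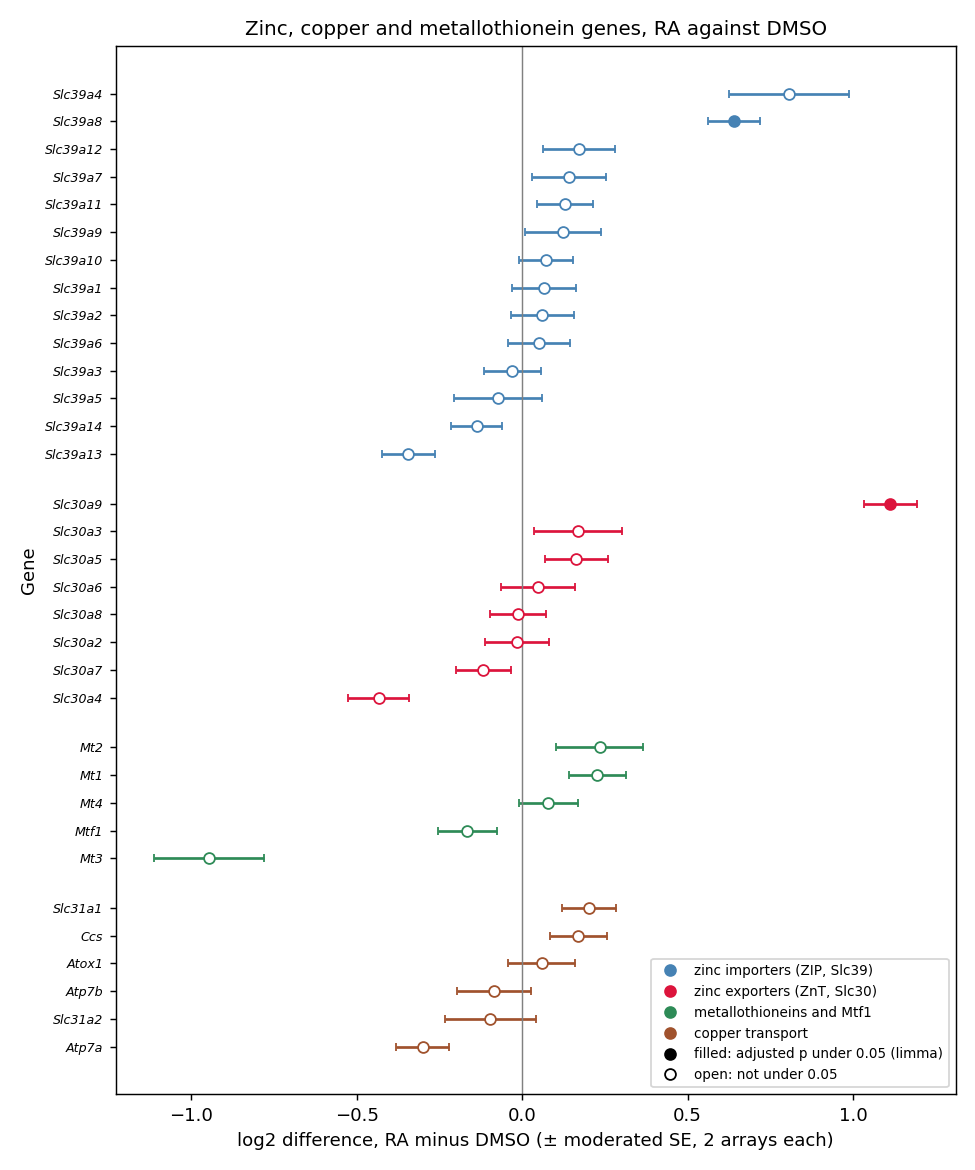
Log2 difference of each of the 33 genes, RA minus DMSO, with limma's moderated SE (2 arrays each), by family. Slc30a9 at 1.11 and Slc39a8 at 0.64 (filled) passed the threshold; Slc39a4 at 0.81 and Mt3 at -0.95 were of like size with wider errors and did not.

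Among the exporters, Slc30a9 stood at 10.48 and 10.42 on the RA arrays, against 9.37 and 9.30 on the DMSO arrays. Both RA arrays were higher than both DMSO arrays by about 1 log2 unit, and replicates lay within 0.1 of each other. The protein, ZnT9, carries zinc out of mitochondria and has also been described as a coactivator of nuclear receptors. It rose 2.16-fold (log2 difference 1.11 ± 0.08, SE; 95% interval 0.90 to 1.32; limma adjusted p = 0.0110). Only 1.36% of all genes had a difference of larger size. The call was lost whichever array was left out (limma adjusted p = 0.0838 to 0.110, differences 1.07 to 1.15), and with the probe sets of constant value kept in the fit (0.0641), where 0% of all genes passed.

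The promoter window of Slc30a9 is shown because this gene had the largest difference of the 33. It holds the 250 bases before the gene's start in RefSeq (GRCm38.p6, chr5:67306705-67306954, + strand), with capitals on the hexamer half-sites that retinoic acid receptors bind (an A or G, then GGTCA or GTTCA, on either strand).

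Slc30a9: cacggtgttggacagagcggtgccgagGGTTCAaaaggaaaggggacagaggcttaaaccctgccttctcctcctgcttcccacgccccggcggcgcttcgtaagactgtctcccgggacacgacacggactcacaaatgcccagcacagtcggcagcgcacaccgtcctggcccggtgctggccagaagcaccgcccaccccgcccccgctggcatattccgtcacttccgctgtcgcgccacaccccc

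There was 1 such half-site in it. Over 300-base windows, which add the 50 bases after the start, 43.7% of all 32851 windows held at least 1 half-site, as did 45.5% of the 33 windows found for 28 of the 33 genes. Direct repeats of the half-site with 1, 2 or 5 bases between, the spacings of retinoic acid response elements, were in 0 of these 33 windows. They were in 0.222%, 0.268% and 0.0974% of all windows. At shares that low, 33 windows are too few to tell whether these genes differ from all others.

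The other exporters did not pass. Slc30a4, whose protein ZnT4 loads zinc into endosomes and lysosomes, was at 11.78 and 11.69 on the RA arrays, against 12.23 and 12.10 on the DMSO arrays. Its groups did not overlap, and its difference was -0.43 ± 0.09 (SE; limma adjusted p = 0.128). Slc30a4 passed in a fit restricted to probe sets with 1 symbol (limma adjusted p = 0.0337), where 7.2% of all genes did, and with an intensity trend in the variance prior (0.0438), where 4.11% did. Slc30a5 and Slc30a6, which together load zinc into enzymes of the secretory pathway, differed by 0.16 ± 0.09 and 0.05 ± 0.11, and Slc30a7, a Golgi exporter, by -0.12 ± 0.08. Slc30a3, the exporter of synaptic vesicles, differed by 0.17 ± 0.13 and Slc30a2, known from milk secretion, by -0.02 ± 0.10. Slc30a8, the exporter of insulin granules, lay in the dim range in both groups, at means of 4.75 with RA and 4.77 with DMSO.

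Among the importers, Slc39a8 was at 8.49 and 8.55 on the RA arrays, against 7.90 and 7.86 on the DMSO arrays. The gap between the groups was much wider than the distance within either of them. Its protein, ZIP8, brings zinc and manganese into the cytosol. It rose 1.56-fold (log2 difference 0.64 ± 0.08, SE; 95% interval 0.43 to 0.84; limma adjusted p = 0.0356). Without any 1 array the difference stayed between 0.61 and 0.67, while the limma adjusted p was 0.146 to 0.245, and with the probe sets of constant value kept it was 0.0789.

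Slc39a4, the importer by which the gut epithelium takes up dietary zinc, was at 8.30 and 7.90 on the RA arrays, against 7.46 and 7.14 on the DMSO arrays. Both RA arrays were higher, with wide gaps within each group. Its difference of 0.81 ± 0.18 (SE) exceeded that of Slc39a8, but its adjusted p was 0.149 (limma). It passed in the fit restricted to probe sets with 1 symbol (limma adjusted p = 0.0316).

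Slc39a13, an importer of Golgi membranes and vesicles, was at 8.73 and 8.74 on the RA arrays, against 9.12 and 9.03 on the DMSO arrays. Both RA arrays were lower, and the difference of -0.34 ± 0.08 (SE) did not pass (limma adjusted p = 0.159). The other 11 importers had differences between -0.14 and 0.17 and limma adjusted p-values from 0.543 to 0.928. They include the plasma membrane importers Slc39a1 (0.07 ± 0.10), Slc39a6 (0.05 ± 0.09) and Slc39a10 (0.07 ± 0.08) and the endoplasmic reticulum importer Slc39a7 (0.14 ± 0.11). Slc39a14, which like ZIP8 also carries manganese, differed by -0.14 ± 0.08, with RA arrays at 8.41 and 8.46 and DMSO arrays at 8.56 and 8.59. Slc39a9 and Slc39a11, importers of Golgi membranes, differed by 0.12 ± 0.11 and 0.13 ± 0.08, Slc39a2 by 0.06 ± 0.10, Slc39a3 by -0.03 ± 0.08 and Slc39a5 by -0.07 ± 0.13. Slc39a12, known from the brain, lay in the dim range in both groups, at means of 5.82 with RA and 5.65 with DMSO.

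**Figure D2:**
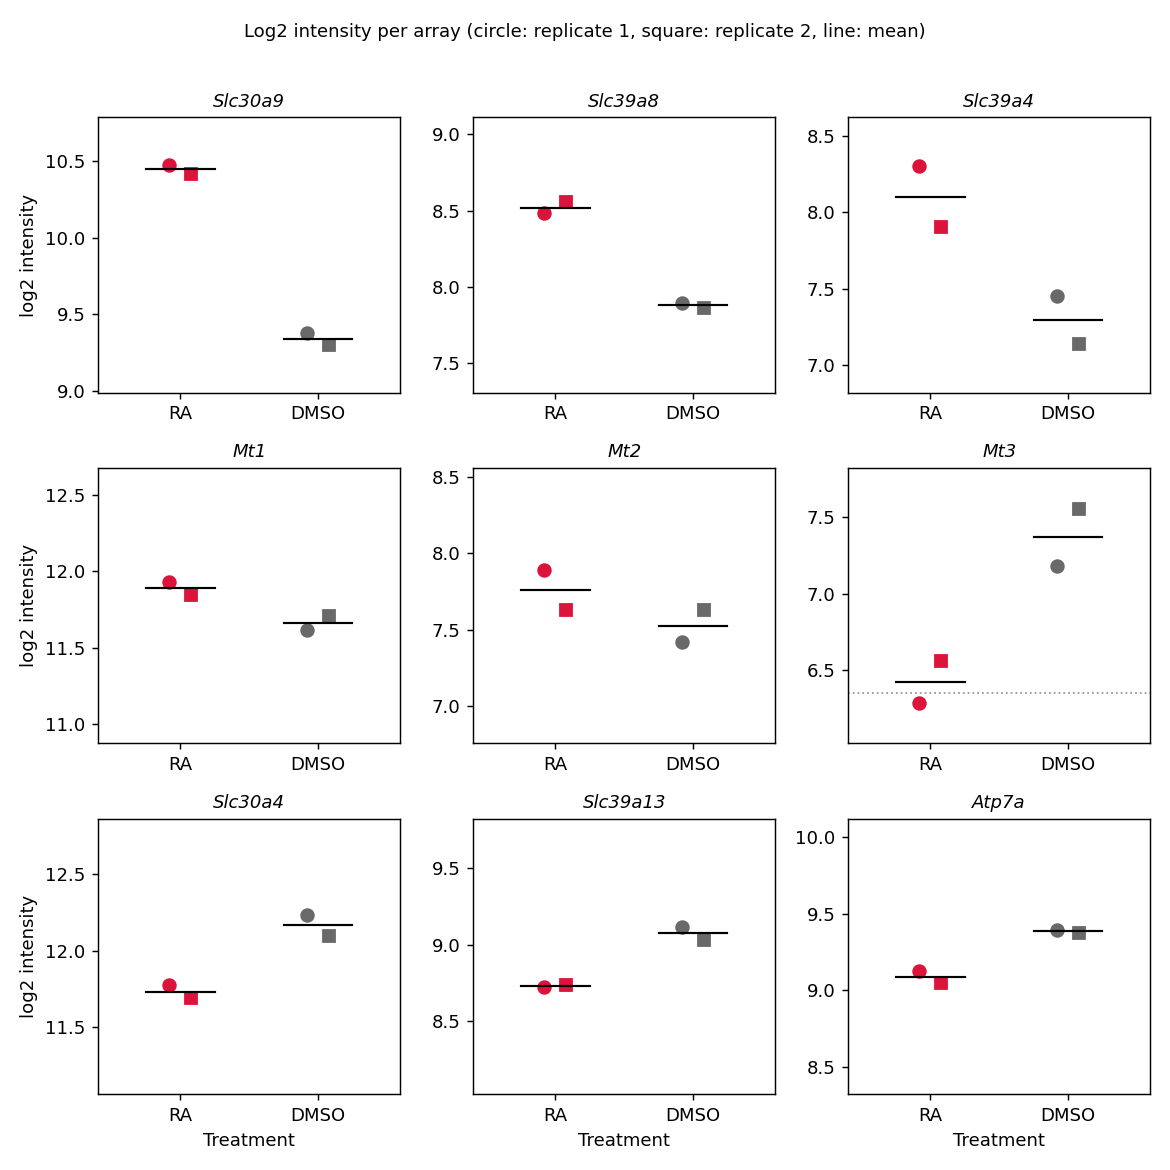
Log2 intensity on each array for 9 genes, RA left of DMSO, with replicate 1 as a circle, replicate 2 as a square and the mean as a line; each panel spans the same number of log2 units, and the dotted line in the Mt3 panel is the dim level of 6.35. RA arrays are above DMSO arrays for Slc30a9, Slc39a8, Slc39a4 and Mt1 and below them for Mt3, Slc30a4, Slc39a13 and Atp7a, while the replicate 2 arrays of Mt2 coincide at 7.63.

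The metallothionein genes lie side by side in the RefSeq order Mt4, Mt3, Mt2, Mt1. None of them, nor Mtf1, passed (0 of 5, limma; at an unadjusted p under 0.05, Mt1 higher and Mt3 lower). Of all genes 15.1% had such an unadjusted p. Mt1 was at 11.93 and 11.84 on the RA arrays, against 11.61 and 11.71 on the DMSO arrays. Both RA arrays were higher by a small step, with a difference of 0.23 ± 0.09 (SE; 95% interval 0.004 to 0.45; limma adjusted p = 0.363). Mt2 was at 7.89 and 7.63 on the RA arrays, against 7.42 and 7.63 on the DMSO arrays, so its groups met at the same value, with a difference of 0.23 ± 0.13 (SE; limma adjusted p = 0.540; 0.10 to 0.36 with 1 array left out). Mtf1 was at 8.35 and 8.50 on the RA arrays, against 8.60 and 8.58 on the DMSO arrays, a difference of -0.17 ± 0.09 (SE; limma adjusted p = 0.524).

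Mt3, the metallothionein known from the brain, was at 6.29 and 6.56 on the RA arrays, against 7.18 and 7.55 on the DMSO arrays. Both RA arrays were lower and close to the dim level, which RA replicate 1 did not reach. The difference of -0.95 ± 0.17 (SE) had an adjusted p of 0.0872 (limma), and 1.98% of all genes had a difference of larger size. It passed among probe sets with 1 symbol (limma adjusted p = 0.0125), above the dim level (0.0457; 7.95% of all genes passed there) and above the median level (0.0464; 7.84%). The metallothionein genes are similar in sequence and their probes may share targets. Mt4, known from squamous epithelium, lay in the dim range in both groups, at means of 5.19 with RA and 5.12 with DMSO.

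The sequences below are shown because Mt1 and Mt3 stood on opposite sides. Capitals mark the core of the metal response element, the motif that Mtf1 is known to bind, written as TGCACNC or TGCGCNC on either strand. For Mt2 and Mt3 they are the 250 bases before the start in RefSeq (GRCm38.p6, + strand, chr8:94172368-94172617 and chr8:94152357-94152606). For Mt1 the 30 bases with the most cores in its window are given (chr8:94179089-94179118, + strand). They lie directly after the start that RefSeq gives for Mt1 and not before it. Where transcription of Mt1 begins in these cells was not tested, so their place relative to that point is not known here.

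Mt1: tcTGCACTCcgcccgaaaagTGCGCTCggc

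Mt2: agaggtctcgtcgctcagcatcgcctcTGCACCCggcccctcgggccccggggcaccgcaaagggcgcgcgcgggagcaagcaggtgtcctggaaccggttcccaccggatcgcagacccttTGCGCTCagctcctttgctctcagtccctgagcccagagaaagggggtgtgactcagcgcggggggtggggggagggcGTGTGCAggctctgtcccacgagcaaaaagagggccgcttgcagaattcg

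Mt3: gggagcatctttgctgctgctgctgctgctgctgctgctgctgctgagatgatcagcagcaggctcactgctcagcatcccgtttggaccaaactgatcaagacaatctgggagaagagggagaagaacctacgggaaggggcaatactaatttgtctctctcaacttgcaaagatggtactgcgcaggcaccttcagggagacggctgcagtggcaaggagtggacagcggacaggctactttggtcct

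The printed stretches differ in length and place, so cores are counted over the whole 300-base windows, where Mt1 had 3 cores, Mt2 4, and Mt3 and Mt4 1 each. At least 1 core was in 25.7% of all windows and in 51.5% of the windows of the zinc and copper genes, and at least 3 cores in 1.97% of all windows. Besides Mt1 and Mt2, the window of Slc30a4 held 3, while Slc30a9 and Mtf1 had 0. A match is a description of the letters in the window and not of binding.

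None of the 6 copper genes passed (0 of 6, limma; Atp7a alone had an unadjusted p under 0.05, as did 15.1% of all genes). Atp7a, the pump that moves copper into the secretory pathway and out of the cell, was at 9.12 and 9.05 on the RA arrays, against 9.39 and 9.38 on the DMSO arrays. The RA arrays were lower without overlap, and the difference was -0.30 ± 0.08 (SE; limma adjusted p = 0.202). Slc31a1, the high-affinity copper importer CTR1, was at 10.21 and 10.14 on the RA arrays, against 9.94 and 10.01 on the DMSO arrays. Its RA arrays were higher without overlap, and the difference of 0.20 ± 0.08 (SE) did not pass either (limma adjusted p = 0.393). Ccs was at 7.77 and 7.88 on the RA arrays, against 7.61 and 7.69 on the DMSO arrays, a difference of 0.17 ± 0.09 (SE; limma adjusted p = 0.499).

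For the remaining copper genes the groups overlapped. Slc31a2, a relative of CTR1 found in endosomes, was at 11.33 and 11.50 on the RA arrays, against 11.67 and 11.35 on the DMSO arrays, and DMSO replicate 1 was the highest of the 4. Atox1 was at 10.40 and 10.28 on the RA arrays, against 10.20 and 10.37 on the DMSO arrays. Their differences were -0.10 ± 0.14 and 0.06 ± 0.10 (SE). Atp7b, the copper pump of the liver, differed by -0.08 ± 0.11 (SE), with means of 6.84 for RA and 6.93 for DMSO.

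**Figure D3:**
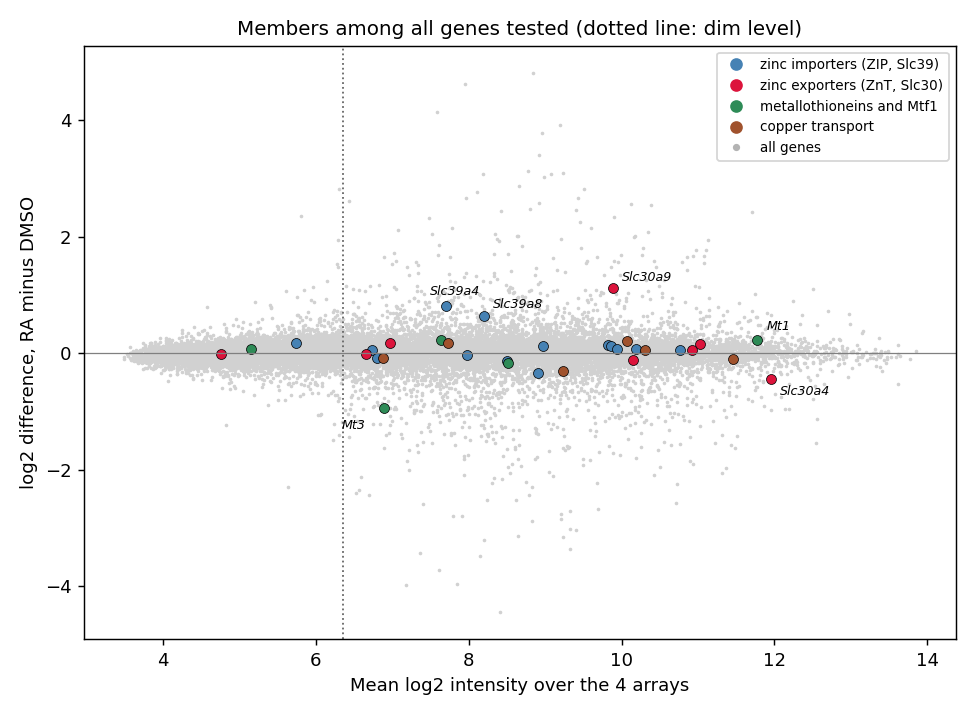
Log2 difference, RA minus DMSO, against the mean log2 intensity over the 4 arrays for the 33 genes (coloured by family) and all 22180 genes (grey), with the dim level of 6.35 dotted. Most of the 33 lie near 0, Slc30a9 at 1.11 is the highest of them and Mt3 at -0.95 the lowest.

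Genes around these transporters were read from lists that were chosen with earlier results of these data known. Their counts are descriptions and not tests. Of 24 measured copper chaperones and copper enzymes, 1 rose, 1 fell and 22 did not pass (limma), with a median difference of 0.02. The share that passed was 8.33%, against 3.07% of all genes and 5.16% of those above the dim level in a group. Cp, which encodes the copper-carrying ferroxidase ceruloplasmin, was at 11.37 and 11.12 on the RA arrays, against 6.55 and 6.33 on the DMSO arrays, a difference of 4.81 ± 0.13 (SE; limma adjusted p = 0.00192). Its DMSO arrays lay close to the dim level, so the difference is against background. Steap3, a metalloreductase able to reduce iron and copper, was at 7.51 and 7.28 on the RA arrays, against 8.41 and 8.49 on the DMSO arrays, and fell by 1.06 on the log2 scale (SE 0.11; limma adjusted p = 0.0243). Sod1, the enzyme that Ccs supplies with copper, was at 11.67 and 11.57 on the RA arrays, against 11.99 and 12.00 on the DMSO arrays. Its RA arrays were lower without overlap, and the difference of -0.37 ± 0.08 (SE) did not pass (limma adjusted p = 0.142). App and the copper chaperone Cox17 differed by -0.06 ± 0.08 and 0.05 ± 0.10.

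Of 9 measured zinc channels, sensors and zinc-binding proteins outside the ZIP and ZnT families, 0 passed (limma), where 3.07% of all genes did. At an unadjusted p under 0.05 there was 1, Tmc8 (0.45 ± 0.15, SE; limma adjusted p = 0.316), and 15.1% of all genes. The median difference was -0.13, against 0.01 over all genes. S100a8 and S100a9, which form the zinc-binding protein calprotectin, differed by -0.07 ± 0.08 and -0.15 ± 0.10, and the channel Trpm7 by -0.17 ± 0.08.

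Metallothionein genes are also induced by oxidative stress and by glucocorticoids. Of 15 measured oxidative and proteotoxic stress genes, 1 rose, 1 fell and 13 did not pass (limma), with a median difference of -0.09. The share that passed was 13.3%, against 3.07% of all genes and 5.16% of those above the dim level in a group. Gsr, the glutathione reductase, was at 12.68 and 12.71 on the RA arrays, against 11.79 and 11.79 on the DMSO arrays, and rose by 0.90 ± 0.08 (SE; limma adjusted p = 0.0147). Slc7a11, the cystine importer, was at 9.58 and 9.32 on the RA arrays, against 10.51 and 10.55 on the DMSO arrays, and fell by 1.08 on the log2 scale (SE 0.11; limma adjusted p = 0.0237). The antioxidant genes Cat, Sod2 and Txnrd1 differed by 0.03 ± 0.09, 0.24 ± 0.10 and -0.07 ± 0.09. Over the 15 genes, 5 differences were positive and 10 negative. The groups did not overlap for 4 on the higher and 7 on the lower side, and for 48% of all genes. Among the latter 7, Nqo1 (-0.80 ± 0.33, SE, limma adjusted p = 0.405) and Ddit3 (-0.45 ± 0.14, SE, limma adjusted p = 0.271) did not pass. Among 8 glucocorticoid-induced genes 1 fell, 7 were not called and 0 rose (limma), and the median difference was -0.06. The share that passed was 12.5%, which is 1 gene, against the same 3.07% and 5.16%. Dusp1, a phosphatase that switches off MAP kinases, fell by 1.32 on the log2 scale (SE 0.08; limma adjusted p = 0.00746), with means of 7.99 ± 0.01 with RA and 9.31 ± 0.07 with DMSO (SD, n = 2 each). The differences of Klf9, Per1 and Fkbp5 were -0.03 ± 0.09, -0.08 ± 0.09 and -0.09 ± 0.09. Sgk1, a kinase gene that is also among these 8, was named after its values were seen. It was at 7.43 and 7.61 on the RA arrays, against 6.48 and 7.09 on the DMSO arrays, without overlap. Its difference of 0.74 ± 0.22 (SE, limma unadjusted p = 0.0218) did not pass (limma adjusted p = 0.254).

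**Figure D4:**
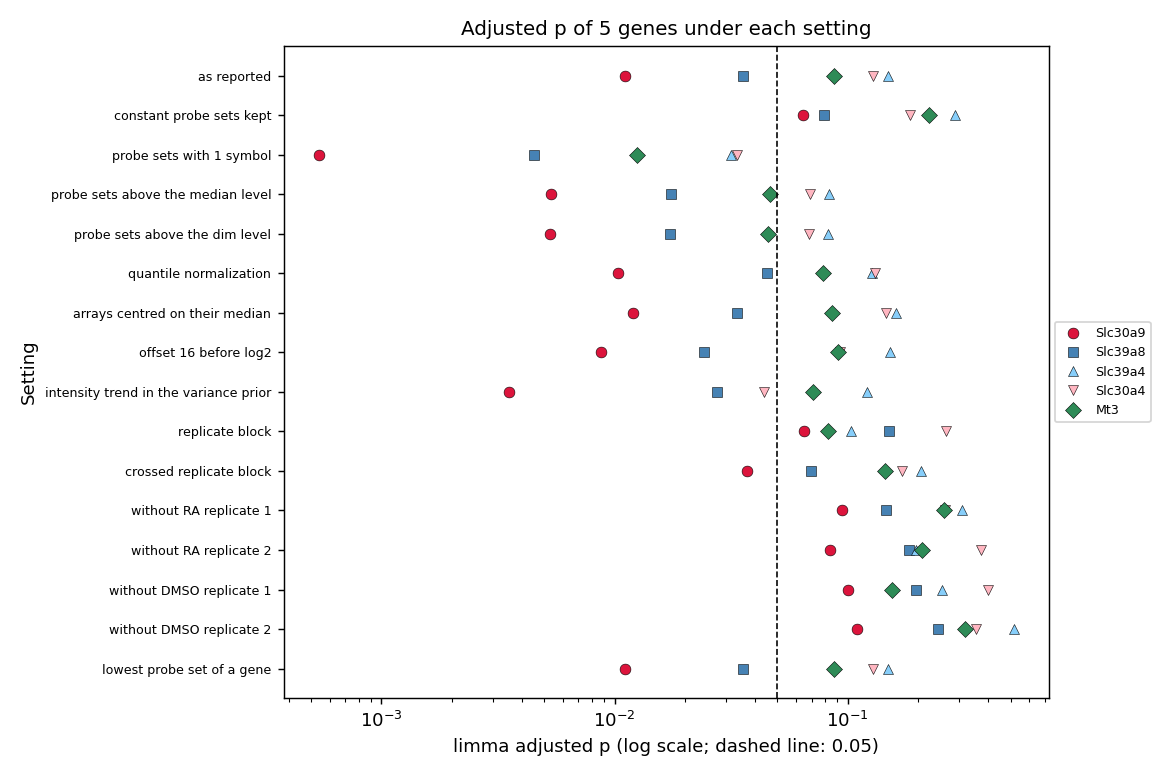
Adjusted p (limma, log scale) of the 5 genes that passed under at least 1 setting, for the fit as reported and each alternative, with the threshold of 0.05 dashed. Slc30a9 and Slc39a8 were left of the line as reported and right of it without any 1 array, while Slc39a4, Slc30a4 and Mt3 crossed it under 1 to 3 alternatives each.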

How the data were processed

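The values deposited by the authors are intensities on a linear scale, one for every probe set on every array, made with Affymetrix Expression Console and RMA (background correction, normalization across arrays and probe set summary), per the submitters' processing notes. Tool versions and the genome build are not given in the sources used here, so no probe set is placed on the genome. Per the labels' protocols, 250 ng of total RNA was labelled with the Affymetrix WT PLUS kit for 1-colour arrays.

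Intensities were transformed to log2 and not normalized again. Of 41345 probe sets, 1625 had the same value on all 4 arrays, none with a symbol. They were left out, since they carry no spread: keeping them lowered the prior degrees of freedom in limma to 0.898, against 2.76 without them, and limma then called 0 genes. RA and DMSO were compared by limma 3.58.1 (R 4.3.3, lmFit and eBayes, two-sided, no covariates, 4 arrays), with Benjamini-Hochberg adjustment over 39720 probe sets. Precision is limited by having 2 arrays a group. The fit was tested on simulated data.

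Symbols came from the platform annotation (23521 probe sets with 1 symbol, 1814 with several, 16010 not listed), and all 33 members were found in RefSeq. Where a gene had several probe sets, the brightest on average stood for it. Promoter windows are RefSeq's (GRCm38.p6).

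Members and gene lists were chosen with earlier results of these data known. Genes were described singly if called, if central by role, or if above the dim level with non-overlapping groups and a difference of at least 0.5. From other lists, called genes and up to 3 uncalled genes of highest level were named, and Tmc8 was named to complete a count. Nqo1, Ddit3 and Sgk1 were named after their values were seen. Alternatives were the probe sets tested, normalization, an offset, a variance trend, replicate blocks and leaving out arrays.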

Additional observations from a re-analysis of the deposited data

How the results depend on the processing

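The 15 alternatives called 5 of the 33 genes in at least 1 fit, and none of these 5 changed direction. The count of higher genes, 2 as reported, was 0 with the constant probe sets kept (0% of all genes passed there) and 0 whichever array was left out (lowest 0, highest 0), where 0.0857% to 0.198% of all genes passed. With replicate number as a block it was 0 (0.64% of all genes), with limma adjusted p-values of 0.0651 for Slc30a9 and 0.150 for Slc39a8. Same-numbered arrays deviated from their group means with a correlation of -0.251 across probe sets and 0.175 over the 33 genes. With 2 arrays a group this cannot decide whether the numbers pair the samples. With the crossed pairing as a block, chosen after seeing the data, the count of higher genes was 1 (Slc30a9, where 1.67% of all genes passed). The count of lower genes, 0 as reported, was 2 among probe sets with 1 symbol (Mt3 and Slc30a4; with Slc39a4 added on the higher side, 5 of 33 genes passed in all, where 7.2% of all genes did), 1 above the median level, 1 above the dim level (Mt3 in both) and 1 with an intensity trend (Slc30a4). Fewer probe sets were tested under those filters, and the SE changed too (Slc39a4, 0.18 as reported and 0.16 among probe sets with 1 symbol). The cause of the changed calls was not tested for the filters, the trend or the block. Quantile normalization, centring and the offset changed no call. The choice of probe set could not, since each of the 33 genes has 1. For 11 uncalled genes, each with a difference of at most 0.10 in size, the sign turned: Slc30a8 was at 0.023 after quantile normalization, and with 1 array left out the ranges were -0.029 to 0.16 for Slc39a1, -0.030 to 0.15 for Slc39a2, -0.028 to 0.13 for Slc39a6, -0.082 to 0.023 for Slc39a3, -0.22 to 0.069 for Slc39a5, -0.076 to 0.17 for Slc30a6, -0.072 to 0.049 for Slc30a8, -0.11 to 0.074 for Slc30a2, -0.026 to 0.15 for Atox1, -0.21 to 0.041 for Atp7b and -0.25 to 0.060 for Slc31a2. Among uncalled genes that kept their sign, sizes moved too, from 0.014 to 0.27 for Slc39a7 and from -0.24 to -0.09 for Mtf1. Levels near the dim level, as for Mt3 with RA, limit how large a difference can appear.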

Other observations

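Genes next to the 2 that rose were read by their RefSeq order. Tmem33 and Bend4, on either side of Slc30a9, differed by 0.22 ± 0.08 and -0.07 ± 0.08 (log2, SE) and did not pass (limma adjusted p = 0.361 and 0.787). Bank1, an adaptor known from B cells and the next protein-coding gene after Slc39a8, had means of 6.82 with RA and 6.15 with DMSO and rose by 0.67 ± 0.09 (SE; limma adjusted p = 0.0424), with its DMSO mean in the dim range. The gene before Slc39a8, Nfkb1, was not analysed here. The B cell marker Cd79b rose as well, with means of 7.70 for RA and 7.04 for DMSO (limma adjusted p = 0.0471). The other 4 B cell markers did not pass. Cd79a and Ebf1 differed by 0.19 ± 0.11 and 0.20 ± 0.09, Pax5 by 0.06 ± 0.18, and Ms4a1 by -0.18 ± 0.09 (SE). The groups did not overlap for Cd79a, Ebf1 and Ms4a1, as for 48% of all genes. Ebf1, Pax5 and Ms4a1 lay in the dim range in both groups. The genes next to Slc39a4 (Cpsf1, 0.13 ± 0.09, and Vps28, 0.11 ± 0.08) did not pass.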
